A study of Homo sapiens with 27 samples.

Results

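The genes described here are 39 protein-coding genes that encode the chaperones, folding enzymes and degradation machinery of the endoplasmic reticulum (ER), out of 19303 protein-coding genes among the 60534 gene identifiers shared by every library. They were chosen by name for what their products do, not by a measured value, though earlier results of these data were known. All 39 were found in the count tables. Their transcript level (RNA-seq) and their ribosome footprints (Ribo-seq, the short RNA fragments that ribosomes protect from nuclease) were measured in 27 libraries of IMR90, an established, wild-type line of human fetal lung fibroblasts. The cells were in 5 states. Cycling cells were harvested while subconfluent (2 RNA-seq and 3 Ribo-seq libraries), and quiescent cells had stopped dividing by contact inhibition (3 and 3). Irradiated cells received 15 Gy of ionizing radiation and were harvested after 10 days (3 and 3), and etoposide cells received 50 µM of this topoisomerase poison in 3 treatments over 10 days (3 and 3); the labels call both states senescent. Thapsigargin cells were subconfluent cycling cells given 25 nM of this inhibitor of the ER calcium pump for 3 h (2 and 2), in a medium whose description lacks the antibiotic and antimycotic listed for the other states. Nothing in the labels says that replicates are separate cultures, so the p-values below measure only the spread between these libraries, which may be technical.

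Proteins that enter the ER are held by the HSP70 chaperone HSPA5 (BiP) and the HSP90 chaperone HSP90B1, or, when they carry N-glycans, by the lectins CALR and CANX, with UGGT1 sending misfolded glycoproteins back for another round. HSPA5 works with J-domain partners (DNAJB9, DNAJB11, DNAJC3, DNAJC10), with the nucleotide exchange factors HYOU1 and SIL1 and with the cofactor SDF2L1, while HSPA13 is a further ER protein of the HSP70 family. Disulphide bonds are made and reshuffled by protein disulphide isomerases and their relatives (P4HB, PDIA3, PDIA4, PDIA6, TXNDC5, TXNDC11), which the oxidases ERO1A and ERO1B recharge, and proline bonds are turned by PPIB, FKBP2 and FKBP14. Proteins that fail to fold go to ER-associated degradation (ERAD). The mannose-trimming EDEM1, EDEM2 and EDEM3 and the lectins OS9 and ERLEC1 mark them. The ubiquitin ligase SYVN1 with SEL1L, HERPUD1 and the Derlins DERL1, DERL2 and DERL3 move them out, and the ATPase VCP pulls them into the cytosol. MANF and CRELD2 are small ER proteins induced by stress, and SERP1 sits at the translocon. When misfolded protein or calcium loss burdens the ER, the sensors ATF6, ERN1 and EIF2AK3 start the unfolded protein response (UPR), which raises transcription of many of these genes and slows translation in general. Fibroblasts, which secrete collagens and other matrix proteins, depend on this machinery.

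Many UPR genes carry an ER stress response element in the promoter, and the sequences below are shown because thapsigargin, an ER stressor, is among the states. RefSeq promoter windows (build GRCh38.p14, 250 bases before to 50 after the start of the gene) were found for 35 of the 39 members. Windows were searched on both strands for the element ERSE, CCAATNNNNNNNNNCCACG, and for ERSE-II, ATTGGNCCACG. These motifs share the CCACG block, but differ in spacing, and the CCAAT block is inverted (ATTGG) in ERSE-II. No member had a match to both. Some genes have more than 1 window, and these 35 members have 45. An exact ERSE lay in 10 of the 45, those of 8 members (CALR, CANX, CRELD2, ERO1B, HSP90B1, HSPA5, PDIA6 and SERP1), and in 0.0769% of all 35116 windows. An exact ERSE-II lay in 3 of the 45, those of 3 members (HERPUD1, HYOU1 and SDF2L1), and in 0.0541% of all windows. The windows of 4 members on which the thapsigargin results turn are printed 5′ to 3′ on the strand of the gene, with the fixed letters of each match in capitals. The HSPA5 window (chr9:125241294-125241593, minus strand) has 1 ERSE at bases -66 to -48 from the start, and that of HSP90B1 (chr12:103930160-103930459, plus strand) has one at -194 and another, reversed, at -89. The HERPUD1 window (chr16:56931892-56932191, plus strand) has 1 ERSE-II at -117 to -107, and the SDF2L1 window (chr22:21642052-21642351, plus strand) has a reversed one at -188 to -178.
HSPA5: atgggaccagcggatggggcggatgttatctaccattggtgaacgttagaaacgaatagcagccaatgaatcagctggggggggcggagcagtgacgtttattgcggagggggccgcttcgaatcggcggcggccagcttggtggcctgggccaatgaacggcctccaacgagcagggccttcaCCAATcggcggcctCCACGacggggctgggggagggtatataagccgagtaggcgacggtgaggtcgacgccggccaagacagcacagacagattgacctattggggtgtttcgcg
HSP90B1: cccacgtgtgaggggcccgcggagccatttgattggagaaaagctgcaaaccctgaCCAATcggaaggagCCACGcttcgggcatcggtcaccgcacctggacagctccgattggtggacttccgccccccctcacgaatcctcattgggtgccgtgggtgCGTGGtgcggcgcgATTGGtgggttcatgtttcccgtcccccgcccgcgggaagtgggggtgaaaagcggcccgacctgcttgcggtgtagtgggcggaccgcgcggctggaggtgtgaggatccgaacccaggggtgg
HERPUD1: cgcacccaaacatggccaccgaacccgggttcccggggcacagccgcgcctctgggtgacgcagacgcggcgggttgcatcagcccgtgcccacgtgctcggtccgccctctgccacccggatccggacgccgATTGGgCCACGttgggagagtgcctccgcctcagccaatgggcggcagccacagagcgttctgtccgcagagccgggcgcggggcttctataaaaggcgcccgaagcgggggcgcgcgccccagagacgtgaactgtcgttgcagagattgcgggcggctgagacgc
SDF2L1: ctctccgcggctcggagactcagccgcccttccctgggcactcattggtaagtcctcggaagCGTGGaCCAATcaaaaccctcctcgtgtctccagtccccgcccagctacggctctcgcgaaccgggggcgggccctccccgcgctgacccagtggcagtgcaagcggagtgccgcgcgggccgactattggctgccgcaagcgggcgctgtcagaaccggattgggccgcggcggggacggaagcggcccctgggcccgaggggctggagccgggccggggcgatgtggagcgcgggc
HYOU1 had 2 reversed ERSE-II sites, both CGTGGtCCAAT, at -185 and -79. The single ERSE sites of the other members were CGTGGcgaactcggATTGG in CRELD2 (-80), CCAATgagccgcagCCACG in PDIA6 (-86), CGTGGtcgaccatcATTGG in CALR (-225), CGTGGagacagcgaATTGG in SERP1 (-232) and CGTGGtcccgcctcATTGG in ERO1B (-243). CANX carried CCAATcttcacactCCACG in the window of each of its 3 starts. The 3 CANX windows overlap and hold the same site, so 1 CANX site counts as 3 of the 10 windows with an ERSE. A match describes these letters only, and a window with none says nothing of a factor's binding.

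The RNA-seq libraries held 20635503 to 57119841 gene counts. Ribo-seq depth was less even: 9874835 to 14439646 in cycling, 17508672 to 19996104 in quiescent, 2652013 to 5556293 in irradiated, 6159333 to 6980115 in etoposide and 1936976 to 2044900 in thapsigargin libraries, so footprint values are least precise in the last. Reads left unmapped were 1.35% to 1.40% in the thapsigargin RNA-seq libraries and 27.8% to 40.6% in the others, so thapsigargin and the handling of its libraries cannot be told apart. Multimapped reads were 65.2% and 66.9% in the thapsigargin Ribo-seq libraries and 19.8% to 31.9% in the other Ribo-seq libraries. Reads with no feature were 12.8% and 11.4%, against 1.45% to 2.93%. In cycling RNA-seq, replicate 2 had 33.4% multimapped and 10.9% no-feature reads, with 10.7% of gene counts on the opposite strand. Replicate 1 had 13.2%, 4.79% and 5.88% in the same order. All 9 fibroblast markers had a mean of at least 1 CPM (counts per 1000000 gene counts) in every state, and the summed level of 4 immune markers stayed between 0 and 2.79 CPM. That of 4 endothelial markers stayed between 0 and 2.64 CPM. Of 5 epithelial markers, 3 also had a mean of at least 1 CPM in every state, and their summed level ranged from 67.5 to 268 CPM. Mean RNA of the proliferation marker MKI67 was 155 CPM in cycling, 14.6 in irradiated and 6.44 in etoposide libraries, and the stress gene DDIT3 stood at 40.6 CPM in cycling and 439 in thapsigargin libraries. Levels of MKI67 in quiescent cells, and of the further state genes LMNB1 and CDKN1A, are not given here. Levels are given as CPM, scaled between libraries by the trimmed mean of M-values. Differences are log2 fold changes ± SE, the first-named state minus the second, tested with edgeR's two-sided quasi-likelihood test over all protein-coding genes that passed a filter on low counts. A gene is called higher or lower where its p, adjusted by Benjamini-Hochberg over all genes tested, is below 0.05.

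By the mean of the libraries, the summed level of the set was lowest in irradiated cells and near or above the cycling level in etoposide and thapsigargin cells. Summed over the 39 genes, RNA was 6340 and 6404 CPM in the cycling libraries, 3516, 3764 and 3516 in the irradiated ones, and 6525, 7108 and 6725 after etoposide. Summed footprints were 11415, 12457 and 12575 CPM in cycling, 4819, 5148 and 4619 in irradiated, and 12740, 13019 and 11631 in etoposide libraries. The mean sum of the irradiated libraries was thus 0.565 of the cycling one in RNA and 0.400 in footprints. Quiescent libraries were spread widely, at 3107, 4523 and 5219 CPM in RNA and 3509, 7743 and 8453 in footprints. Quiescent replicate 1 lay below every irradiated library in both and the other quiescent libraries above, so the ranges of the sums overlapped. Thapsigargin libraries held 8362 and 8748 CPM in RNA, above every other library, but 12239 and 12294 CPM in footprints, within the cycling range. HERPUD1 alone held 1409.7 and 1569 CPM of that RNA, against 132 and 123 in the cycling libraries. In footprints it held 1076 and 1251 CPM, against 98.4, 105 and 109.6 in the cycling libraries. Much of the rise in summed RNA was thus that of HERPUD1, so the thapsigargin sums do not give the level of the set as a whole.

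**Figure D1:**
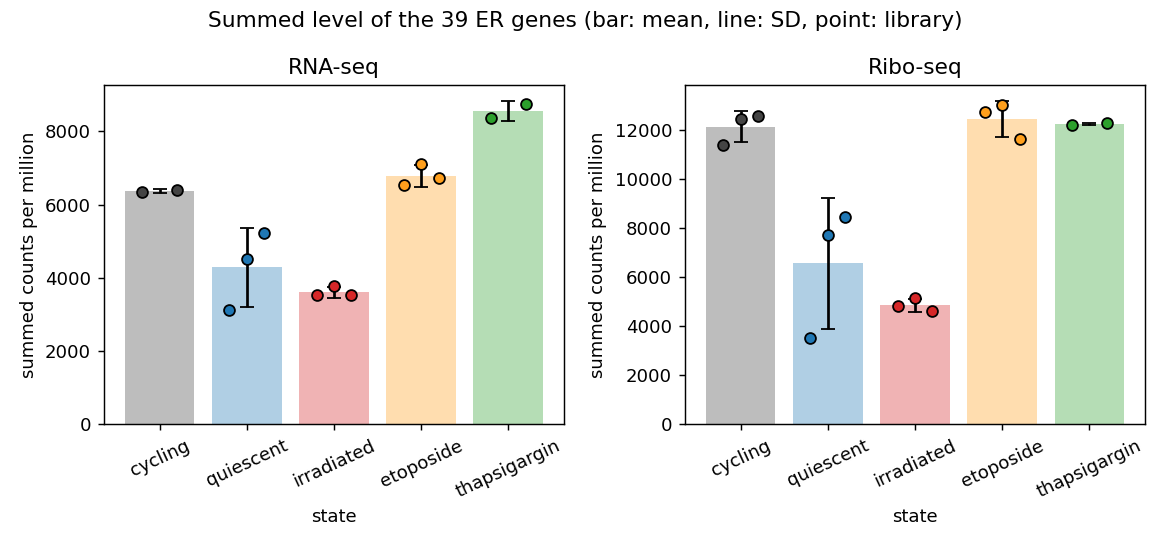
Summed level of the 39 genes (y axis, CPM) in RNA-seq and Ribo-seq libraries of each state (x axis); bars are means, error bars SD, points single libraries. The irradiated points, 3516 to 3764 in RNA and 4619 to 5148 in footprints, lie below all cycling and etoposide points, and 1 quiescent library lies below the other quiescent libraries in each panel.

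**Figure D2:**
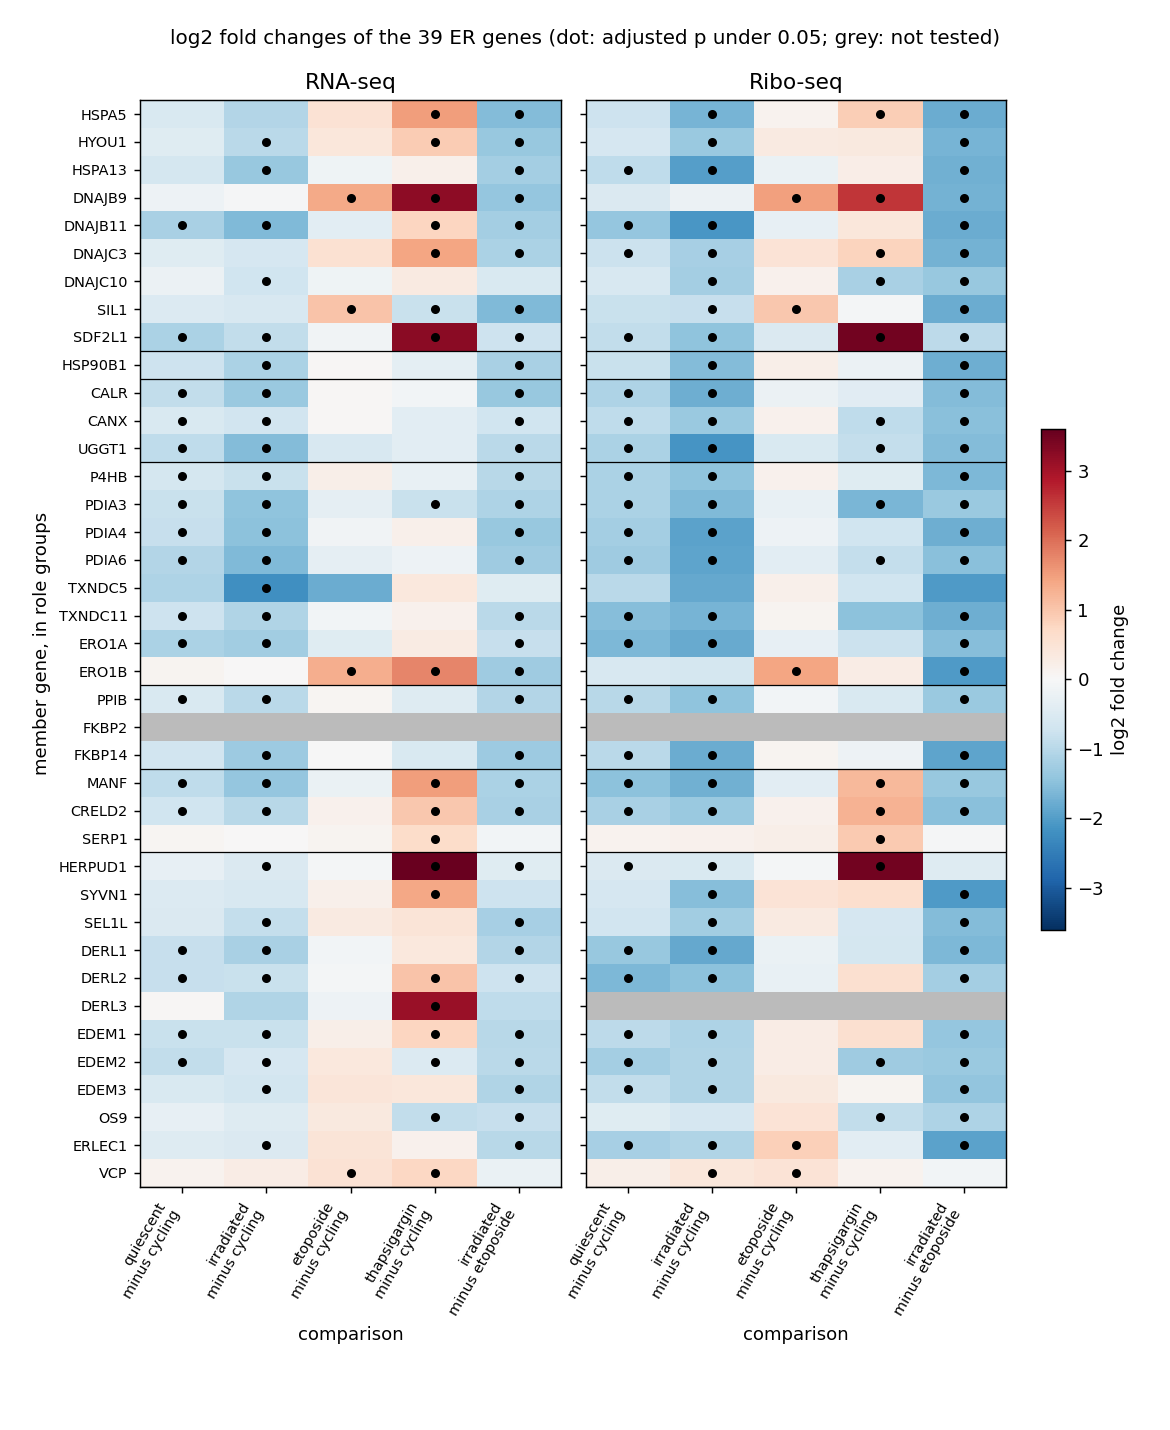
Log2 fold change of each of the 39 genes (rows, ordered by role) in 5 comparisons (columns), RNA on the left and footprints on the right; a dot marks an adjusted p below 0.05 and grey a gene not tested. The columns for irradiated against cycling and against etoposide cells are negative for nearly every gene, and the etoposide column has 4 called genes in RNA and 5 in footprints.

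After irradiation, genes of every role were lower than in cycling cells. In RNA, 28 of the 38 members tested fell and 0 rose, where 18.8% of all 13289 genes tested fell and 16.2% rose. The members' median log2 fold change was -0.92, beside 0.033 over all genes. In footprints, 31 of 37 members fell and 1 rose, where 21.6% of 11762 genes fell and 19% rose, and the medians were -1.45 and 0.026. Of the members tested in both, 27 fell in RNA and in footprints. These are bulk libraries, so fewer cells with a transcript and less of it in each cell cannot be told apart. The summed footprints of the 9 fibroblast markers, secreted matrix proteins among them, also stood lower, at 24051 ± 1179 CPM in irradiated and 35860 ± 1098 in cycling libraries (mean ± SD, n = 3 each). In RNA the sums of these markers overlapped, at 10219 and 14629 CPM in cycling and 10056 to 10457 in irradiated libraries. The smooth muscle pair MYH11 and DES stood higher, at 46.3 ± 8.82 CPM in irradiated RNA (n = 3) and a mean of 7.04 in cycling RNA (n = 2); whether these shifts play a part in the members' values was not tested.

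Within the HSP70 system, 5 of 9 genes fell in RNA and 8 of 9 in footprints after irradiation. HSPA5 footprints were 1024, 1077 and 1129 CPM in the cycling libraries and 323, 372 and 325 in the irradiated ones, and they fell by a log2 fold change of -1.66 ± 0.27 (adjusted p = 0.000314). All 3 irradiated libraries lay far below the cycling ones. HSPA5 RNA, at 122 and 167 CPM in cycling and 76.9, 61.7 and 71.3 in irradiated libraries, gave -1.05 ± 0.43 (adjusted p = 0.072) and was not called. DNAJB11, the J-domain partner that binds clients beside HSPA5, had 37.5 and 38.0 CPM of RNA in cycling and 12.6, 13.7 and 11.1 in irradiated libraries, a change of -1.60 ± 0.24 (adjusted p = 0.000218). Its footprints went from 68.9, 65.4 and 79.2 to 16.0, 17.9 and 16.8 CPM, a change of -2.08 ± 0.35 (adjusted p = 0.000416), with wide gaps between the groups on both scales. HSPA13 footprints, 116, 128 and 110.3 in cycling and 32.1, 28.1 and 28.1 in irradiated libraries, changed by -1.99 ± 0.32 (adjusted p = 0.000245). DNAJB9, by contrast, was not called in either: its RNA was 20.0 and 20.8 CPM in cycling and 18.0, 22.2 and 19.6 in irradiated libraries, and the groups overlapped.

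HSP90B1, the ER's HSP90, had 359 and 390.2 CPM of RNA in cycling and 170.2, 171 and 171 in irradiated libraries and changed by -1.13 ± 0.31 (adjusted p = 0.0124). Its footprints were 912, 1182 and 1045 and 340.0, 411 and 315 CPM, a change of -1.56 ± 0.30 (adjusted p = 0.000998), and the groups did not overlap in either. Without cycling replicate 2 the HSP90B1 RNA value was -1.07 (adjusted p = 0.0701). All 3 genes of the lectin cycle fell in RNA and in footprints. UGGT1, which marks misfolded glycoproteins for another folding round, was 153 and 151 CPM in cycling RNA and 56.2, 52.0 and 47.4 in irradiated RNA, a change of -1.55 ± 0.22 (adjusted p = 0.000123). Its footprints, 235, 257 and 232 against 55.5, 60.1 and 50.1 CPM, changed by -2.13 ± 0.29 (adjusted p = 7.48e-05), the largest footprint change of any member in this comparison. Each irradiated library was below every cycling one by more than the spread within either group.

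Of the lectins, CALR RNA went from 898 and 768 to 333, 365 and 299 CPM, a change of -1.33 ± 0.24 (adjusted p = 0.000724). CANX footprints went from 744, 862 and 894 to 325, 345 and 313 CPM, a change of -1.35 ± 0.26 (adjusted p = 0.00122).

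Of the 8 disulphide enzymes, 7 fell in RNA and 6 in footprints. PDIA6 RNA was 302 and 306 CPM in cycling and 95.5, 107 and 101 in irradiated libraries, a change of -1.59 ± 0.25 (adjusted p = 0.000301). PDIA4 footprints were 213, 259 and 249 CPM in cycling and 60.7, 64.6 and 62.9 in irradiated libraries, a change of -1.94 ± 0.31 (adjusted p = 0.000248). Both are isomerases, and their groups were far apart. TXNDC5 had the largest RNA value, -2.21 ± 0.77 (adjusted p = 0.0394), but rested on levels of 1.10 and 0.311 CPM in cycling and 0.0379, 0.352 and 0.0786 in irradiated libraries, whose ranges overlapped. The change of TXNDC5 was -0.99 (adjusted p = 0.579) without cycling replicate 1, -1.74 (adjusted p = 0.126) without irradiated replicate 1 and -1.90 (adjusted p = 0.121) without irradiated replicate 3, so the call depends on single libraries. In RefSeq TXNDC5 overlaps BMP6 and a read-through transcript with BLOC1S5, and what part this has in its low counts was not tested. P4HB, the founding isomerase of the family, went from 454 and 547 to 289, 313 and 261 CPM of RNA, a change of -0.80 ± 0.19 (adjusted p = 0.00529), or -0.66 (adjusted p = 0.0667) without cycling replicate 2. Both prolyl isomerases tested fell in RNA and footprints, with FKBP14 RNA at 91.3 and 95.0 CPM in cycling and 35.9, 37.9 and 39.1 in irradiated libraries and a change of -1.31 ± 0.26 (adjusted p = 0.0016). MANF and CRELD2 also fell in both; MANF footprints went from 143, 144 and 169 to 44.2, 52.8 and 41.7 CPM, a change of -1.72 ± 0.27 (adjusted p = 0.000225). In all of these except TXNDC5 the irradiated libraries lay below the cycling ones.

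In ERAD, 8 of 12 genes fell in RNA, and in footprints 9 of 11 fell and 1 rose. HERPUD1, the membrane scaffold of the SYVN1 complex, went from 132 and 123 CPM of RNA to 84.4, 90.6 and 93.1, a change of -0.51 ± 0.13 (adjusted p = 0.00924). HERPUD1 footprints, 98.4, 105 and 109.6 in cycling and 76.3, 58.9 and 78.5 in irradiated libraries, changed by -0.54 ± 0.16 (adjusted p = 0.0158), a smaller shift than those of the chaperones above, with no overlap between the groups. SEL1L, the adaptor of SYVN1, was 118 and 129 CPM in cycling and 63.4, 70.2 and 71.5 in irradiated RNA, a change of -0.85 ± 0.26 (adjusted p = 0.0214). SEL1L footprints were 113, 138 and 135 and 54.3, 51.7 and 57.1 CPM, a change of -1.24 ± 0.28 (adjusted p = 0.00289). The exception was VCP, the cytosolic ATPase, whose footprints were 595, 633 and 591 CPM in cycling and 804, 804 and 795 in irradiated libraries and rose by 0.40 ± 0.079 (adjusted p = 0.00121). VCP RNA gave 0.27 ± 0.11 (adjusted p = 0.0663) and was not called. The HERPUD1 value was -0.46 (adjusted p = 0.0862) in RNA without cycling replicate 1 and -0.47 (adjusted p = 0.0591) in footprints without irradiated replicate 2. The SEL1L RNA call was lost without cycling replicate 1 or 2 or irradiated replicate 1, with -0.79 (adjusted p = 0.11) at the weakest.

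**Figure D3:**
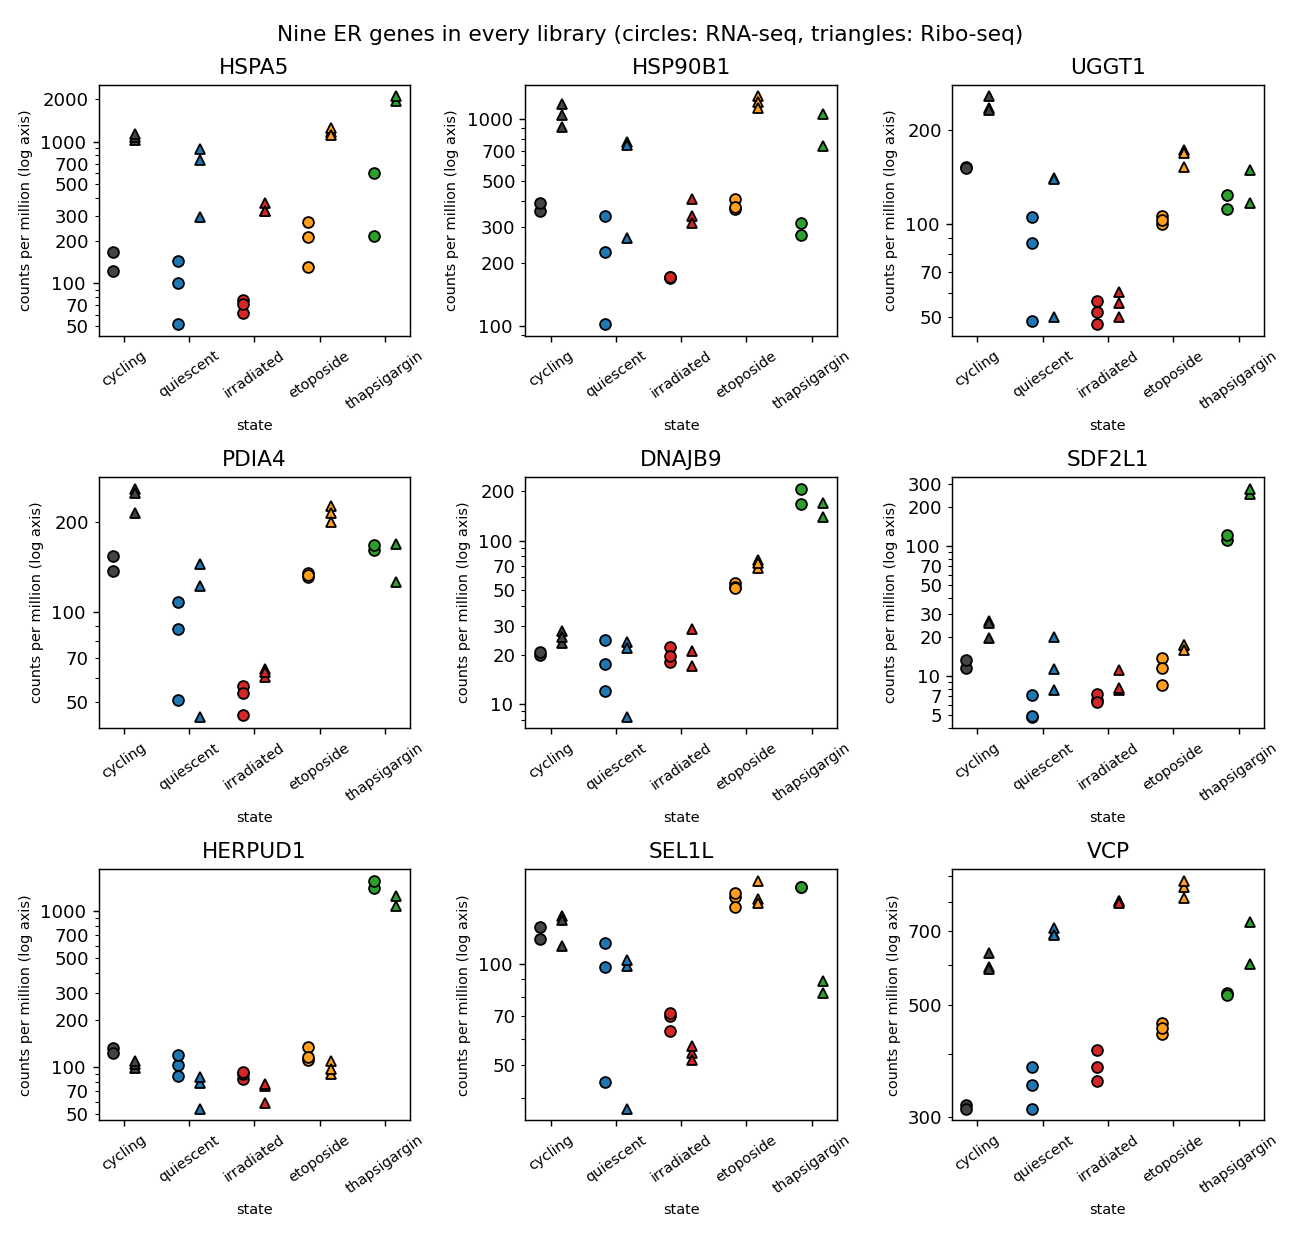
CPM in every library (y axis, log scale) of 9 of the genes in the 5 states (x axis), circles for RNA and triangles for footprints. HSPA5, HSP90B1, UGGT1, PDIA4 and SEL1L are low in irradiated libraries, HERPUD1, SDF2L1 and DNAJB9 are high in thapsigargin libraries, and VCP footprints are higher in irradiated (795 to 804) and etoposide (814 to 882) than in cycling libraries (591 to 633).

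The question whether both routes to senescence leave this machinery alike was tested directly, irradiated against etoposide. The genes were lower after irradiation in nearly every case: 32 of 38 in RNA and 33 of 37 in footprints were lower and 0 higher in each, where 12.9% of all genes were lower and 9.68% higher in RNA, and 13.7% lower and 8.82% higher in footprints. The median over members was -1.06 in RNA and -1.57 in footprints, beside 0.061 and 0.064 over all genes. In this comparison 31 members were lower in both. By role, 8 of 9 HSP70-system genes were lower in RNA and 9 of 9 in footprints, and 3 of 3 lectin-cycle genes, 7 of 8 disulphide enzymes and 2 of 2 prolyl isomerases were lower in each. For ERAD the counts were 9 of 12 in RNA and 9 of 11 in footprints. The members not called were DERL3, DNAJC10, SERP1, SYVN1, TXNDC5 and VCP in RNA, and HERPUD1, SERP1, TXNDC5 and VCP in footprints.

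HSPA5 RNA was 131, 213 and 273 CPM in the etoposide libraries, above all 3 irradiated values (61.7 to 76.9), a difference of -1.56 ± 0.39 (adjusted p = 0.012). In footprints HSPA5 stood at 1169, 1246 and 1106 CPM after etoposide and below 373 after irradiation, a difference of -1.79 ± 0.27 (adjusted p = 0.000806). SIL1, the exchange factor of HSPA5, was 58.5, 66.7 and 52.4 CPM in etoposide RNA and 17.6, 22.8 and 18.1 in irradiated RNA and had the largest RNA difference of any member, -1.60 ± 0.22 (adjusted p = 0.000385). DNAJB9, which binds HSPA5 and feeds clients to ERAD, was 54.8, 51.9 and 51.0 CPM in etoposide RNA, so that its difference of -1.40 ± 0.20 (adjusted p = 0.000402) came with the etoposide libraries high rather than the irradiated ones low. CALR, the soluble lectin, had 333, 365 and 299 CPM in irradiated and 738, 966 and 864 in etoposide RNA, a difference of -1.36 ± 0.22 (adjusted p = 0.000778). HSP90B1 was lower, at -1.16 ± 0.29 (adjusted p = 0.0104) in RNA and by -1.77 ± 0.30 (adjusted p = 0.00137) in footprints, with etoposide levels of 409, 365 and 374 and 1286, 1205 and 1130.4 CPM.

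In footprints, an oxidase, 2 ERAD genes and a prolyl isomerase differed most between the senescent states among the members called. ERO1B, which recharges the isomerases, had 1.06, 2.66 and 1.45 CPM in irradiated and 8.02, 4.80 and 7.08 in etoposide libraries, a difference of -2.05 ± 0.52 (adjusted p = 0.012); without irradiated replicate 1 it was -1.75 (adjusted p = 0.0836). SYVN1, the ERAD ubiquitin ligase, had 7.80, 9.12 and 10.1 and 37.2, 39.2 and 33.8 CPM, a difference of -2.04 ± 0.43 (adjusted p = 0.0042). ERLEC1, a lectin of the same complex, had 19.3, 24.0 and 18.8 and 69.2, 93.1 and 72.2 CPM, a difference of -1.93 ± 0.28 (adjusted p = 0.000629). These groups did not overlap. FKBP14, a prolyl isomerase that acts on collagen, had 19.7, 21.7 and 19.1 and 75.3, 73.6 and 75.4 CPM, a difference of -1.90 ± 0.33 (adjusted p = 0.0015). SEL1L differed by -1.19 ± 0.24 (adjusted p = 0.00322) in RNA, with 158, 162 and 148 CPM after etoposide, and by -1.57 ± 0.28 (adjusted p = 0.00172) in footprints, with 156, 177 and 152 CPM. HERPUD1 differed by -0.43 ± 0.12 (adjusted p = 0.0206) in RNA and -0.47 ± 0.16 (adjusted p = 0.0517) in footprints, with 111, 134 and 117 and 90.5, 109.9 and 97.2 CPM after etoposide. Its RNA value was -0.35 (adjusted p = 0.106) without etoposide replicate 2 and -0.39 (adjusted p = 0.0892) without irradiated replicate 1.

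Against cycling cells, etoposide cells kept most of the set at levels whose difference did not pass the test. In RNA 4 of 38 members rose (DNAJB9, ERO1B, SIL1 and VCP) and 0 fell, where 16.8% of all genes rose and 17.8% fell, and in footprints 5 of 37 rose (the same 4 and ERLEC1) and 0 fell, where 16.8% rose and 17.1% fell. The share of members that rose was thus not above that of all genes. Fitted on the cycling and etoposide libraries alone, 11 members rose and 5 fell in RNA, where 46.5% of all genes were called in either direction, and 11 rose and 9 fell in footprints, where 52.4% were. With all states fitted, the footprint count dropped to 2 without cycling replicate 1 and to 3 without etoposide replicate 1. Of all genes, 26.7% and 26% were called in these fits, against 33.9% with every library. Medians were 0.038 in RNA and 0.15 in footprints, beside 0.0016 and 0.0052 over all genes. DNAJB9 rose by 1.37 ± 0.23 (adjusted p = 0.000455) in RNA, from 20.0 and 20.8 CPM in cycling libraries, and by 1.49 ± 0.29 (adjusted p = 0.00132) in footprints, from 23.5, 27.8 and 25.5 to 67.5, 75.6 and 73.2 CPM. Every etoposide library was above every cycling library for this gene in both, with a wide gap. ERO1B rose by 1.30 ± 0.28 (adjusted p = 0.00274) in RNA, from 2.67 and 1.97 to 6.40, 5.78 and 5.15 CPM, and by 1.41 ± 0.42 (adjusted p = 0.0183) in footprints, from 1.95, 2.97 and 2.43 CPM. SIL1 rose by 1.02 ± 0.25 (adjusted p = 0.00703) in RNA, from 29.1 and 29.5 CPM, and by 0.96 ± 0.28 (adjusted p = 0.0162) in footprints, from 46.0, 54.2 and 54.5 to 105, 106 and 90.8 CPM.

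VCP, whose RNA was 317 and 311 CPM in cycling and 439, 460.0 and 450.3 in etoposide libraries, rose by 0.52 ± 0.11 (adjusted p = 0.00241), and its footprints by 0.49 ± 0.079 (adjusted p = 0.000296). The change was small but larger than the spread, with no overlap between groups. ERLEC1 footprints rose by 0.86 ± 0.26 (adjusted p = 0.0181), from 37.2, 47.0 and 45.0 CPM. Of the chaperones given throughout, HSPA5 differed by 0.51 ± 0.44 (adjusted p = 0.393) in RNA and 0.12 ± 0.26 (adjusted p = 0.752) in footprints, and HSP90B1 by 0.032 ± 0.32 (adjusted p = 0.951) and 0.21 ± 0.29 (adjusted p = 0.622). The ERAD scaffold HERPUD1 differed by -0.081 ± 0.14 (adjusted p = 0.679) and -0.070 ± 0.16 (adjusted p = 0.767), in the same order. SEL1L differed by 0.34 ± 0.27 (adjusted p = 0.354) and 0.33 ± 0.26 (adjusted p = 0.366). None of these 8 values was called. Leaving out single libraries ended several of the calls. SIL1 RNA gave 1.00 (adjusted p = 0.0616) without cycling replicate 1 and 1.02 (adjusted p = 0.0514) without cycling replicate 2, and SIL1 footprints gave 0.87 (adjusted p = 0.0697) without cycling replicate 1 and 0.92 (adjusted p = 0.0541) without etoposide replicate 1. ERLEC1 footprints gave 0.75 (adjusted p = 0.0827) without cycling replicate 1 and 0.73 (adjusted p = 0.0637) without etoposide replicate 2. ERO1B footprints lost their call without cycling replicate 1 or 3 or etoposide replicate 1 or 3, with 1.24 (adjusted p = 0.0807) at the weakest.

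In quiescent cells the set was lower than in cycling cells, but with a wide spread between quiescent libraries. In RNA 18 of 38 members fell and 0 rose, where 10.4% of all genes fell and 5.18% rose, and in footprints 24 of 37 fell and 0 rose, where 14.2% fell and 8.15% rose. The medians were -0.64 in RNA and -0.95 in footprints, beside 0.025 and 0.038 over all genes. Quiescent replicate 1 was the lowest quiescent library for 34 of 38 members in RNA and for 35 of 37 in footprints, and the summed fibroblast markers were also lowest in it, at 17642 CPM of footprints against 30613 and 37168 in the other quiescent libraries. Without it, 14 members fell in RNA with a median of -0.40, and 26 fell in footprints with a median of -0.62. Of all genes, 12.8% were then called in either direction in RNA and 18.2% in footprints, against 15.6% and 22.4% with it. The RNA count also fell without either of the 2 cycling libraries, which leaves 1 library in that group. The footprint count fell to 12 without cycling replicate 3, where 13.3% of all genes were called. Fitted on the quiescent and cycling libraries alone, 6 members fell in RNA, where 6.76% of all genes were called in either direction, and 7 in footprints, where 15.9% were. Of the members that fell in irradiated RNA, 18 also fell in quiescent RNA and 10 did not (DNAJC10, EDEM3, ERLEC1, FKBP14, HERPUD1, HSP90B1, HSPA13, HYOU1, SEL1L and TXNDC5); both comparisons share the cycling libraries.

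DNAJB11 had the largest called RNA change in quiescence, -1.18 ± 0.24 (adjusted p = 0.00544), with 10.5, 17.1 and 22.5 CPM. The oxidase ERO1A fell from 72.6 and 72.9 to 21.8, 33.4 and 43.4 CPM, a change of -1.15 ± 0.21 (adjusted p = 0.00347), and in footprints from 95.9, 101 and 93.9 to 16.3, 43.3 and 35.9 CPM, a change of -1.61 ± 0.27 (adjusted p = 0.00118). SDF2L1, the cofactor of DNAJB11, went from 11.4 and 13.3 to 4.86, 7.10 and 4.88 CPM of RNA, a change of -1.14 ± 0.21 (adjusted p = 0.00295). For these genes every quiescent library was below every cycling one. PDIA6 RNA was 81.5, 153 and 206 CPM in quiescent libraries, a change of -1.05 ± 0.25 (adjusted p = 0.0129) that was -1.06 (adjusted p = 0.078) without cycling replicate 1 and -1.04 (adjusted p = 0.0731) without cycling replicate 2. In footprints the Derlin DERL2 fell from 69.5, 75.3 and 68.7 to 14.2, 29.9 and 26.1 CPM, a change of -1.61 ± 0.23 (adjusted p = 0.000523). MANF footprints went from 143, 144 and 169 to 28.9, 65.8 and 69.6 CPM, a change of -1.47 ± 0.26 (adjusted p = 0.00151). Footprints of TXNDC11, a thioredoxin-domain protein of the ER membrane, were 19.8, 21.7 and 18.8 in cycling and 4.03, 7.14 and 9.89 in quiescent libraries, a change of -1.52 ± 0.44 (adjusted p = 0.025). That call was lost without any 1 cycling library or without quiescent replicate 2, with -1.46 (adjusted p = 0.0744) at the weakest. The quiescent libraries were low for all of these genes, and replicate 1 was the lowest for each of them. For SDF2L1 RNA the margin was narrow, at 4.86 CPM beside 4.88 in replicate 3.

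The large chaperones were less clear in quiescence. HSPA5 was 51.3, 144 and 101 CPM in quiescent RNA and 294, 737 and 891 in quiescent footprints, changes of -0.55 ± 0.43 (adjusted p = 0.444) and -0.75 ± 0.26 (adjusted p = 0.0572). HSP90B1 was 101, 226 and 339.5 and 265, 775 and 751 CPM, changes of -0.75 ± 0.31 (adjusted p = 0.129) and -0.81 ± 0.29 (adjusted p = 0.0614). SEL1L was 44.4, 97.8 and 115 and 37.1, 98.6 and 103 CPM, changes of -0.53 ± 0.26 (adjusted p = 0.208) and -0.70 ± 0.26 (adjusted p = 0.073). None of these 6 changes was called. HERPUD1 fell in footprints, to 54.2, 78.8 and 86.6 CPM, a change of -0.51 ± 0.16 (adjusted p = 0.0312), and was not called in RNA, at 88.0, 104 and 120.3 CPM and -0.30 ± 0.13 (adjusted p = 0.168). Its footprint value was -0.35 (adjusted p = 0.0699) without quiescent replicate 1, -0.51 (adjusted p = 0.0742) without cycling replicate 2 and -0.47 (adjusted p = 0.102) without cycling replicate 3.

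Set against quiescent cells, which also do not divide, the mean of both senescent states was higher for 8 members in RNA and 6 in footprints and lower for 0. Of all genes, 16.6% were higher and 17.6% lower in RNA and 12.5% higher and 13.6% lower in footprints. The medians, 0.24 in RNA and 0.24 in footprints beside 0.0048 and 0.019 over all genes, average states that lay apart. The RNA count was 16 without quiescent replicate 3 and 5 without etoposide replicate 2, where 32.9% and 28.7% of all genes were called. Without quiescent replicate 1, 5 members were higher and 3 lower in RNA, with a median of 0.0028, where 30.7% of all genes were called. In footprints without it 4 were higher and 3 lower, with a median of -0.0072, where 23.3% of all genes were called. The positive medians thus rest on that library. DNAJB9 was higher by 0.85 ± 0.18 (adjusted p = 0.00247) in RNA and 1.15 ± 0.26 (adjusted p = 0.00591) in footprints, from quiescent levels of 11.9, 17.5 and 24.5 and 8.35, 23.8 and 21.9 CPM. EDEM2, which makes the first mannose cut of ERAD, was higher by 0.79 ± 0.12 (adjusted p = 0.000242) in RNA, with 18.7, 23.5 and 21.3 CPM in quiescent, 24.7, 30.1 and 23.4 in irradiated and 52.0, 56.1 and 45.3 in etoposide libraries. For DNAJB9 and EDEM2 the etoposide libraries were above all quiescent ones. SIL1 was higher by 0.72 ± 0.20 (adjusted p = 0.0131) in RNA and 0.87 ± 0.25 (adjusted p = 0.0215) in footprints, and SDF2L1 by 0.63 ± 0.17 (adjusted p = 0.0109) in RNA. ERLEC1 was higher by 1.10 ± 0.24 (adjusted p = 0.00385) in footprints and EDEM2 by 0.80 ± 0.26 (adjusted p = 0.0374) in footprints. The EDEM2 footprint call was lost without any of 7 of the 9 libraries, with 0.76 (adjusted p = 0.119) without quiescent replicate 2. The SIL1 footprint call was lost without quiescent replicate 2 or irradiated replicate 2, at 0.93 (adjusted p = 0.0506) and 0.82 (adjusted p = 0.0502). HSPA5 differed by 0.28 ± 0.34 (adjusted p = 0.552) in RNA and -0.021 ± 0.23 (adjusted p = 0.958) in footprints, and HSP90B1 by 0.20 ± 0.25 (adjusted p = 0.558) and 0.13 ± 0.25 (adjusted p = 0.744). HERPUD1 differed by -0.0026 ± 0.10 (adjusted p = 0.988) and 0.20 ± 0.14 (adjusted p = 0.307), and SEL1L by 0.27 ± 0.21 (adjusted p = 0.343) and 0.24 ± 0.23 (adjusted p = 0.487). None of these 8 was called.

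Each senescent state was also compared with quiescence on its own, a comparison added after the data were seen, and they stood at different places. Etoposide was higher than quiescent for 29 of 38 members in RNA and 32 of 37 in footprints and lower for 0, where 21.1% of all genes were higher and 20.6% lower in RNA, and 19% higher and 16.8% lower in footprints. The medians were 0.73 and 1.08, beside -0.016 and -0.0037 over all genes. Fitted on these states alone, the footprint count was 15, where 34.6% of all genes were called in either direction. Irradiated was lower than quiescent for 3 members in RNA and 3 in footprints and higher for 0, where 9.71% of all genes were lower and 9.01% higher in RNA, and 7.35% lower and 7.22% higher in footprints. Its medians were -0.31 and -0.42, beside 0.0085 and -0.0057. The irradiated count turned on quiescent replicate 1. Without it 16 members were lower in RNA and 24 in footprints, where 21.2% and 20.4% of all genes were called in either direction. Without any other library of these states 0 members were called in either. There the shares of all genes called were 10.8% to 16.9% in RNA and 7.93% to 13.8% in footprints.

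Against quiescent cells, etoposide RNA was higher by 1.55 ± 0.20 (adjusted p = 5.35e-05) for DNAJB9, 1.52 ± 0.22 (adjusted p = 0.000155) for SIL1, 1.27 ± 0.13 (adjusted p = 1.02e-05) for EDEM2 and 1.19 ± 0.24 (adjusted p = 0.00144) for ERO1B. In footprints the largest values were those of ERLEC1, at 2.06 ± 0.26 (adjusted p = 5.52e-05) from quiescent levels of 10.0, 20.9 and 25.2 CPM, and of DNAJB9, at 2.00 ± 0.29 (adjusted p = 0.000173). They were followed by ERO1B, at 1.99 ± 0.42 (adjusted p = 0.00231), and SIL1, at 1.77 ± 0.28 (adjusted p = 0.000357). These genes encode a J-domain partner, an exchange factor, an oxidase, and a mannosidase and a lectin of ERAD. HSPA5 was higher by 1.06 ± 0.39 (adjusted p = 0.0422) in RNA and 0.87 ± 0.26 (adjusted p = 0.0195) in footprints, and HSP90B1 by 0.78 ± 0.28 (adjusted p = 0.0402) and 1.02 ± 0.29 (adjusted p = 0.0147). SEL1L was higher by 0.86 ± 0.24 (adjusted p = 0.0105) and 1.03 ± 0.26 (adjusted p = 0.00813). HERPUD1 gave 0.21 ± 0.12 (adjusted p = 0.175) in RNA, not called, and 0.44 ± 0.16 (adjusted p = 0.0425) in footprints. Single libraries ended 3 of these calls. HERPUD1 footprints lost theirs without any 1 library but quiescent replicate 3, with 0.27 (adjusted p = 0.129) without quiescent replicate 1. HSPA5 RNA lost its call without etoposide replicate 2 or 3 or quiescent replicate 1 or 3, with 0.80 (adjusted p = 0.151) without etoposide replicate 3. HSP90B1 RNA lost its call without any etoposide library or quiescent replicate 2, with 0.74 (adjusted p = 0.0919) without etoposide replicate 1.

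The members called lower in irradiated than in quiescent RNA were PDIA4, at -0.66 ± 0.20 (adjusted p = 0.0355), UGGT1, at -0.63 ± 0.20 (adjusted p = 0.0434), and the collagen prolyl isomerase PPIB, at -0.42 ± 0.14 (adjusted p = 0.0436). In footprints they were HSPA13, at -1.08 ± 0.31 (adjusted p = 0.0328), UGGT1, at -0.99 ± 0.28 (adjusted p = 0.0326), and HSPA5, at -0.92 ± 0.27 (adjusted p = 0.0354). All 6 calls were lost without any 1 library other than quiescent replicate 1, with adjusted p up to 0.14, 0.172, 0.161, 0.148, 0.14 and 0.133 in the order named. The quiescent and irradiated ranges of all 6 overlapped, as for UGGT1 RNA at 48.8, 86.9 and 105 CPM in quiescent and 56.2, 52.0 and 47.4 in irradiated libraries. HSPA5 RNA gave -0.50 ± 0.39 (adjusted p = 0.414), and HSP90B1 -0.38 ± 0.28 (adjusted p = 0.393) in RNA and -0.75 ± 0.29 (adjusted p = 0.11) in footprints. HERPUD1 gave -0.22 ± 0.12 (adjusted p = 0.236) and -0.032 ± 0.16 (adjusted p = 0.924), and SEL1L -0.33 ± 0.24 (adjusted p = 0.376) and -0.54 ± 0.27 (adjusted p = 0.219).

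After 3 h of thapsigargin the RNA of a subset of the genes was higher, led by HERPUD1, SDF2L1 and DNAJB9; that of other chaperones was not called or was lower. In RNA 16 of 38 members rose and 4 fell, where 11.7% of all genes rose and 12.8% fell, with a median of 0.37 beside -0.034 over all genes. With RLE size factors in place of the trimmed mean the split was 16 higher and 1 lower. DERL3 passed the filter on low counts through its thapsigargin libraries alone, so it had to differ to be tested. Without it 15 of 37 members rose and 4 fell, with a median of 0.37. The 16 were CRELD2, DERL2, DERL3, DNAJB11, DNAJB9, DNAJC3, EDEM1, ERO1B, HERPUD1, HSPA5, HYOU1, MANF, SDF2L1, SERP1, SYVN1 and VCP. The 4 that fell were EDEM2, OS9, PDIA3 and SIL1. By role, 6 of 9 HSP70-system genes rose and 1 fell, 6 of 12 ERAD genes rose and 2 fell (5 of 11 and 2 without DERL3), MANF, CRELD2 and SERP1 all rose, and none of the lectin cycle or the prolyl isomerases was called. In footprints 8 of 37 members rose and 7 fell, where 21.1% of all genes rose and 23.6% fell, with medians of -0.19 and -0.082. The 8 that rose (CRELD2, DNAJB9, DNAJC3, HERPUD1, HSPA5, MANF, SDF2L1 and SERP1) also rose in RNA. The 7 that fell were CANX, DNAJC10, EDEM2, OS9, PDIA3, PDIA6 and UGGT1. As shares these footprint counts are close to those of all genes. The footprint call of UGGT1 was lost in 7 of 11 alternatives, and those of OS9, PDIA6 and DNAJC3 in 5 of 11 each. The RNA count fell without either cycling library and the footprint count without either thapsigargin library, fits that leave 1 library in a group. Without cycling replicate 2 the footprint count was 9, where 38.1% of all genes were called, against 44.6% with every library.

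The HERPUD1 transcript, whose promoter window above holds an ERSE-II, stood at 132 and 123 CPM in cycling and 1409.7 and 1569 in thapsigargin RNA and rose by 3.54 ± 0.16 (adjusted p = 6.3e-08). Its footprints went from 98.4, 105 and 109.6 to 1076 and 1251 CPM, a rise of 3.48 ± 0.18 (adjusted p = 1.67e-08). Both thapsigargin libraries were far above every library of the other states, in RNA and in footprints. SDF2L1, with the reversed ERSE-II, had 111 and 122 CPM in thapsigargin RNA, a rise of 3.23 ± 0.23 (adjusted p = 1.19e-06), and its footprints went from 26.7, 19.7 and 25.6 to 251 and 278 CPM, a rise of 3.47 ± 0.29 (adjusted p = 1.24e-06). DNAJB9, whose window holds neither motif, reached 208 and 168 CPM in RNA and 169.8 and 139 in footprints, rises of 3.21 ± 0.26 (adjusted p = 2.9e-06) and 2.59 ± 0.32 (adjusted p = 4.03e-05). For these 3 genes the thapsigargin libraries were the highest of the series.

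The other rises in RNA were smaller and lay among the HSP70 system, the ERAD genes, the oxidase ERO1B and the stress-induced MANF, CRELD2 and SERP1. MANF went from 66.5 and 55.1 to 172 and 173 CPM, a rise of 1.50 ± 0.24 (adjusted p = 0.000586), and in footprints to 268 and 408 CPM, a rise of 1.15 ± 0.28 (adjusted p = 0.00475). The ubiquitin ligase SYVN1 went from 5.22 and 8.62 to 16.0 and 20.3 CPM of RNA, a rise of 1.40 ± 0.32 (adjusted p = 0.00648). DERL2 went from 68.7 and 65.1 to 149 and 123 CPM of RNA, a rise of 1.03 ± 0.17 (adjusted p = 0.000787), while its footprints, 84.9 and 129 CPM, were not called. In MANF, SYVN1 and DERL2 both thapsigargin libraries lay above all cycling ones in RNA. EDEM1, a recognition factor of ERAD, rose by 0.78 ± 0.23 (adjusted p = 0.0239), HYOU1, the exchange factor with 2 ERSE-II matches, by 0.92 ± 0.25 (adjusted p = 0.0172), and CRELD2 by 0.97 ± 0.21 (adjusted p = 0.00443). The J-domain proteins DNAJC3 and DNAJB11 rose by 1.41 ± 0.27 (adjusted p = 0.00216) and 0.78 ± 0.26 (adjusted p = 0.0464), and ERO1B by 1.77 ± 0.30 (adjusted p = 0.00089). Several of these calls were lost with either cycling library left out or with 1 thapsigargin library left out: DNAJB11 without thapsigargin replicate 1 (0.52, adjusted p = 0.217), EDEM1 without replicate 2 (0.43, adjusted p = 0.216) and HYOU1 without replicate 2 (0.67, adjusted p = 0.118). CRELD2 was lost without cycling replicate 2 (0.86, adjusted p = 0.0565), SYVN1 without cycling replicate 1 (1.07, adjusted p = 0.086) and MANF footprints without thapsigargin replicate 2 (0.81, adjusted p = 0.0756).

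HSPA5, with the ERSE shown above, was 216 and 601 CPM in thapsigargin RNA, a rise of 1.50 ± 0.48 (adjusted p = 0.0358) whose replicates differed widely. Without thapsigargin replicate 2 it was 0.60 (adjusted p = 0.397), without cycling replicate 1 1.29 (adjusted p = 0.21), and the call was lost in 5 of 10 alternatives. Its footprints were steadier, at 1929 and 2088 CPM against 1024, 1077 and 1129 in cycling libraries, a rise of 0.90 ± 0.29 (adjusted p = 0.0227). This call was also lost in 5 of 11 alternatives, those without cycling replicate 1 or 2 or either thapsigargin library among them, with adjusted p up to 0.0966. HSP90B1, whose window holds 2 ERSE matches, was not called: its RNA was 313 and 274 CPM, a difference of -0.35 ± 0.35 (adjusted p = 0.493), and its footprints 1057 and 740.4 CPM, a difference of -0.22 ± 0.33 (adjusted p = 0.611). SEL1L was 169.8 and 169 CPM in RNA and 88.7 and 81.9 in footprints, differences of 0.45 ± 0.29 (adjusted p = 0.277) and -0.59 ± 0.32 (adjusted p = 0.145), not called. DERL3 rose by 3.11 ± 0.71 (adjusted p = 0.00646), but from 0.402 and 0 CPM in cycling to 2.37 and 1.60 in thapsigargin libraries. Its fitted fold depends on the prior count where a library is at 0. CRELD2 footprints, 51.5, 48.3 and 56.1 in cycling and 101 and 147 in thapsigargin libraries, rose by 1.25 ± 0.34 (adjusted p = 0.00879), which was 0.95 (adjusted p = 0.0972) without thapsigargin replicate 2. SERP1, which was called in no other comparison, rose by 0.65 ± 0.20 (adjusted p = 0.0275) in RNA and 0.93 ± 0.12 (adjusted p = 4.2e-05) in footprints, the latter from 184, 175 and 176 to 373 and 307 CPM. SERP1 RNA gave 0.35 (adjusted p = 0.199) without thapsigargin replicate 1 and was also lost without either cycling library.

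The 4 falls in thapsigargin RNA ranged from -0.88 to -0.48. OS9, an ERAD lectin, went from 109.7 and 124 to 66.3 and 60.7 CPM, a change of -0.88 ± 0.20 (adjusted p = 0.00586), and gave -0.79 (adjusted p = 0.0522) without cycling replicate 2. PDIA3, the disulphide isomerase that works with CALR and CANX, went from 304 and 319 to 168 and 186 CPM, a change of -0.82 ± 0.28 (adjusted p = 0.0468). SIL1 went from 29.1 and 29.5 to 16.4 and 17.2 CPM, a change of -0.80 ± 0.27 (adjusted p = 0.0458), and EDEM2 from 40.5 and 38.2 to 29.1 and 27.3 CPM, a change of -0.48 ± 0.16 (adjusted p = 0.0443). In each of these 3 the thapsigargin libraries were below the cycling ones, but the call was lost with any 1 library left out, with adjusted p up to 0.165 for PDIA3, 0.151 for SIL1 and 0.193 for EDEM2. In footprints PDIA3 fell further, from 239, 293 and 287 to 80.5 and 93.5 CPM, a change of -1.65 ± 0.32 (adjusted p = 0.00109) that kept its call in every alternative run. EDEM2 footprints, 26.5, 31.4 and 32.0 and 7.12 and 17.3 CPM, changed by -1.29 ± 0.40 (adjusted p = 0.0198), and by -0.83 (adjusted p = 0.187) without thapsigargin replicate 1. DNAJC10, a J-domain protein that reduces disulphides before ERAD, went from 81.8, 107 and 92.9 to 35.6 and 47.8 CPM, a change of -1.17 ± 0.33 (adjusted p = 0.0119), and of -1.02 (adjusted p = 0.107) without thapsigargin replicate 1. CANX, the membrane lectin, went from 744, 862 and 894 to 446 and 444 CPM, a change of -0.91 ± 0.30 (adjusted p = 0.0256) that was lost without cycling replicate 2 or 3 or either thapsigargin library, with -0.95 (adjusted p = 0.106) at the weakest. The Ribo-seq libraries of thapsigargin cells were counted against another gene list than the other Ribo-seq libraries and are the shallowest. In them the summed fibroblast markers stood at 12781 ± 381 CPM (SD, n = 2); the part of these in the footprint falls was not tested.

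**Figure D4:**
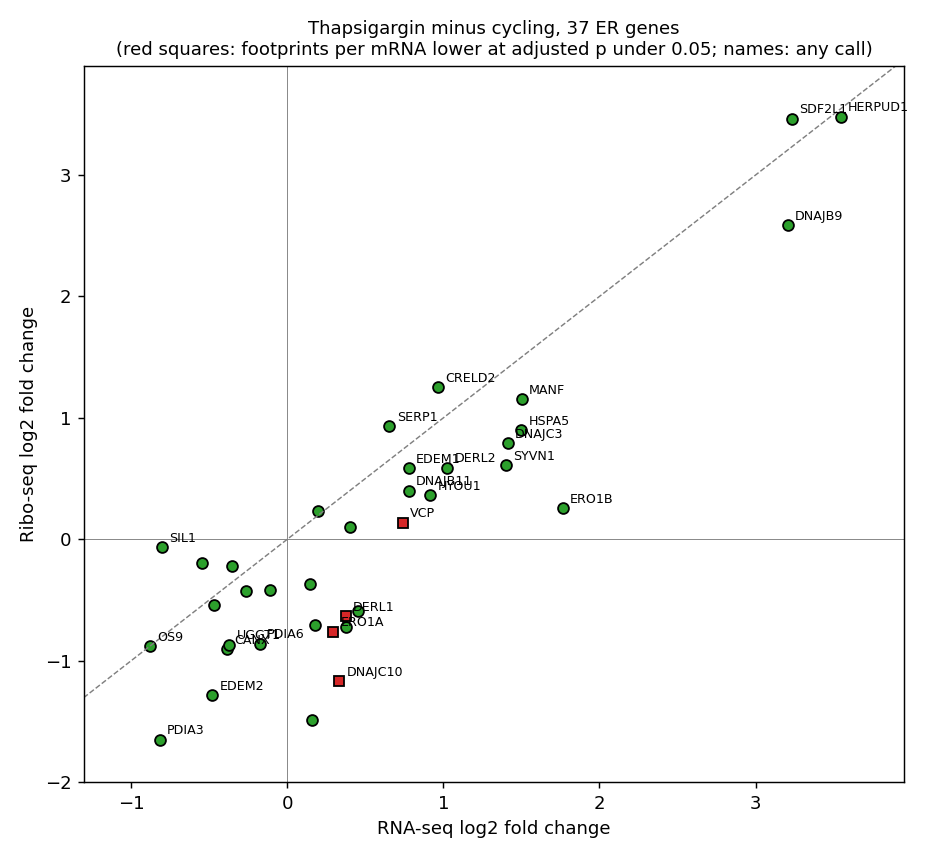
Log2 fold change in footprints (y axis) against that in RNA (x axis) of the 37 members tested in both, thapsigargin minus cycling; the dashed line marks equal change and red squares a called fall in translational efficiency. HERPUD1 and SDF2L1 lie near the line at over 3 on both axes, and DNAJC10, ERO1A, DERL1 and VCP lie below it.

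Translational efficiency (TE), the footprint change beyond the RNA change, was tested over 11711 genes in a model of both assays, as the interaction between assay and state. In the states other than thapsigargin no member was called. For quiescent against cycling cells 0.00854% of all genes had higher and 0% lower TE, for irradiated 0.0427% and 0.00854%, for etoposide 0.0256% and 0.0427%, and for irradiated against etoposide 0% and 0%, so the test called almost nothing anywhere in these comparisons. At an unadjusted p below 0.05 the members counted 2, 1, 0 and 4 of 37 in the same order, where 3.47%, 6.69%, 3.82% and 6.56% of all genes did, and DESeq2 called 0 in each. Fitted on the groups compared alone, 13 members had lower TE in irradiated than in cycling cells, where 758 of 11322 genes were called, and 13 in irradiated than in etoposide cells, where 606 of 11126 were called. Against cycling cells the members' median TE change was -0.23 for the quiescent state, -0.38 for irradiation and -0.061 for etoposide, and -0.26 for irradiated against etoposide, beside 0.077, 0.069, -0.027 and 0.092 over all genes. After thapsigargin 4 of 37 members had lower and 0 higher TE, where 12.8% of all genes had lower and 7.89% higher, with medians of -0.57 and -0.15. The share of members with lower TE was thus not above that of all genes.

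DNAJC10 had the lowest called TE after thapsigargin, -1.56 ± 0.41 (adjusted p = 0.00952), with RNA at 157 and 161 CPM in cycling and 234 and 166 in thapsigargin libraries beside its lower footprints. Without thapsigargin Ribo-seq replicate 1 it was -1.38 (adjusted p = 0.0541). VCP had -0.66 ± 0.16 (adjusted p = 0.00502), its RNA rising by 0.74 ± 0.12 (adjusted p = 0.000611) to 527 and 524 CPM while its footprints, 603 and 729 CPM, gave 0.14 ± 0.089 (adjusted p = 0.229); the TE call held in all 15 alternatives. ERO1A, at -1.11 ± 0.40 (adjusted p = 0.0497), and DERL1, at -1.06 ± 0.35 (adjusted p = 0.0322), were near the threshold, and each was lost in 11 of 15 alternatives, with adjusted p up to 0.191 and 0.0866. For DERL1 any 1 library left out ended the call, and for ERO1A any 1 but thapsigargin Ribo-seq replicate 2. For ERO1A RNA was 100.1 and 78.5 CPM and footprints 46.0 and 68.3 CPM in the thapsigargin libraries, and for DERL1 86.9 and 81.8 and 63.0 and 56.7. For 3 members that rose, TE was not called: -0.11 ± 0.22 (adjusted p = 0.758) for HERPUD1, 0.18 ± 0.36 (adjusted p = 0.762) for SDF2L1 and -0.65 ± 0.56 (adjusted p = 0.439) for HSPA5. The HSPA5 value was 0.29 (adjusted p = 0.759) without thapsigargin RNA-seq replicate 2.

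The promoter motifs were set beside the thapsigargin response as a description. Of the 11 members whose window holds an exact ERSE or ERSE-II, 7 rose and 0 fell in RNA (CRELD2, ERO1B, HERPUD1, HSPA5, HYOU1, SDF2L1 and SERP1), with a median log2 fold change of 0.92. The 4 not called were CALR, CANX, HSP90B1 and PDIA6, at -0.11, -0.38, -0.35 and -0.17. Of the 23 tested members whose window holds neither, 8 rose and 3 fell, with a median of 0.33. The largest rise among those was that of DNAJB9. In footprints 5 of the 11 rose and 2 fell, with a median of 0.36, and of the 23 without a match 3 rose and 4 fell, with a median of -0.37.

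**Figure D5:**
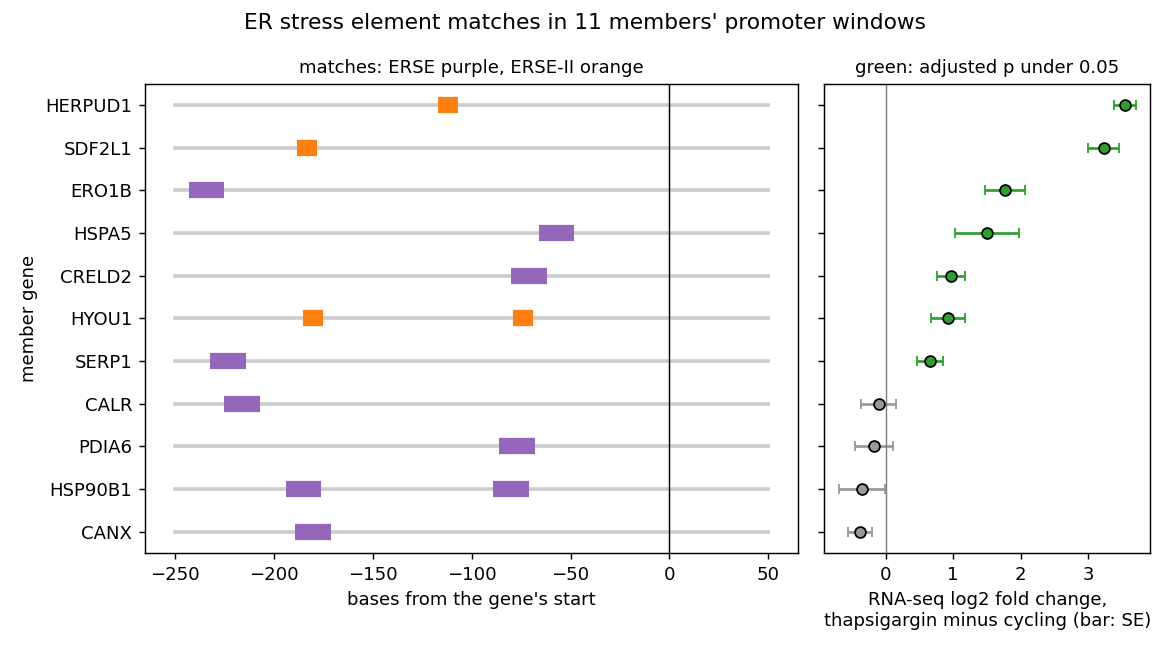
Position of each exact ERSE or ERSE-II relative to the gene start in bases (left), and the log2 fold change ± SE of RNA after thapsigargin (right), for the 11 members with a match; green marks an adjusted p below 0.05. HERPUD1 and SDF2L1 have the largest changes, and HSP90B1, with 2 matches, a value of -0.35.

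Other genes of the pathway were counted against the same shares of all genes, of which 18.8% fell and 16.2% rose in RNA after irradiation, and 21.6% fell and 19% rose in footprints. Of 16 oligosaccharyltransferase and translocon genes, which glycosylate and import the same clients, 10 fell and 1 rose in RNA after irradiation, and 14 fell and 1 rose in footprints. STT3A, a catalytic subunit, changed by -1.81 ± 0.21 (adjusted p = 2.2e-05) in RNA, SEC61A1, the channel, by -1.33 ± 0.19 (adjusted p = 0.000141), and STT3B, the other catalytic subunit, by -2.25 ± 0.27 (adjusted p = 2.61e-05) in footprints. In irradiated against etoposide cells 12 of the 16 were lower in RNA and 13 in footprints and 0 were higher, beside 12.9% and 13.7% of all genes lower. Of 18 further ERAD and ubiquitin factors 7 fell and 1 rose in RNA after irradiation and 8 fell and 2 rose in footprints. SELENOS, a VCP recruiter, changed by -1.29 ± 0.21 (adjusted p = 0.000394) in RNA and the ligase RNF139 by -1.21 ± 0.18 (adjusted p = 0.000178). Of 14 UPR sensors and regulators 5 fell and 3 rose in RNA and 9 fell and 4 rose in footprints, with CREB3L2 at -1.66 ± 0.30 (adjusted p = 0.000843) and XBP1 at -1.42 ± 0.20 (adjusted p = 0.000113) in RNA. Of 17 cytosolic chaperones 3 fell and 1 rose in RNA and 4 fell and 4 rose in footprints, falls near the shares of all genes. DNAJB4 rose by 1.39 ± 0.22 (adjusted p = 0.000257) and CCT2 changed by -0.56 ± 0.15 (adjusted p = 0.0109) in RNA, and none of the 17 was called in either between irradiated and etoposide cells. Every list shares the cycling libraries in the first comparison.

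After thapsigargin, when 11.7% of all genes rose and 12.8% fell in RNA and 21.1% rose and 23.6% fell in footprints, 7 of the 14 UPR genes rose and 0 fell in RNA and 6 rose and 2 fell in footprints. DDIT3, a transcription factor of the EIF2AK3 branch, rose by 3.44 ± 0.16 (adjusted p = 6.3e-08) in RNA and 5.18 ± 0.25 (adjusted p = 9.39e-09) in footprints. PPP1R15A, a phosphatase subunit that restores translation, rose by 2.33 ± 0.12 (adjusted p = 9.63e-08) and 4.38 ± 0.23 (adjusted p = 2.06e-08). In TE 5 of the 14 were higher and 0 lower, beside 7.89% and 12.8% of all genes. For the other lists most counts lay near the shares of all genes. Of the 18 further ERAD factors 3 rose and 0 fell in RNA and 3 rose and 2 fell in footprints, with SELENOK at 1.36 ± 0.18 (adjusted p = 0.000137) and SELENOS at 0.72 ± 0.23 (adjusted p = 0.0374) in RNA. Of the 16 oligosaccharyltransferase and translocon genes 3 fell and 0 rose in RNA, led by DDOST at -0.60 ± 0.15 (adjusted p = 0.0113) and SSR4 at -0.48 ± 0.16 (adjusted p = 0.0395), and 4 fell and 1 rose in footprints. Of the 17 cytosolic chaperones 2 rose and 1 fell in RNA, led by DNAJB4 at 1.15 ± 0.23 (adjusted p = 0.00288) and BAG3 at 0.92 ± 0.21 (adjusted p = 0.00715), and 6 rose and 4 fell in footprints.

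FKBP2 could not be assessed: it had 0 to 3 counts per RNA-seq library and 0 to 1 per Ribo-seq library and was tested in neither, and DERL3, with 0 to 6 counts per Ribo-seq library, was not tested in footprints. In RefSeq FKBP2 overlaps LOC114841035 and DERL3 overlaps SMARCB1, and what part this has in their counts was not tested. TXNDC5, tested in footprints, was called there in none of the 6 comparisons among cycling, quiescent, senescent and thapsigargin cells, and DNAJB9 and SERP1 were among the members not called lower in RNA or footprints after irradiation.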

How the data were processed

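RNA-seq and Ribo-seq libraries of IMR90 fibroblasts were deposited as tables of raw read counts per gene and strand, whole numbers that the authors had not normalized. The submitters' processing notes name bcl2fastq, STAR 2.7.10b, DESeq2 1.36.0 and the build hg38; their settings are not given in the sources used here. Of the strands counted, the reverse one was used in RNA-seq and the forward one in Ribo-seq, after the share on the opposite strand was found to be 3.56% to 10.7%. Rows that name no gene stayed out; reads with no feature were 1.45% to 12.8% of those on the strand used. The thapsigargin Ribo-seq libraries list 62703 gene identifiers and the other Ribo-seq libraries 60664, so the 60534 shared ones were used, of which 60461 had a symbol and 40525 matched RefSeq.

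Each state had 2 or 3 libraries per assay, grouped by their titles; a further label marks every thapsigargin library as protected fragments and was not followed. Counts were fitted with edgeR 4.0.16 (R 4.3.3, limma 3.58.1; filterByExpr, TMM scaling, robust quasi-likelihood, 1 mean per state over all 5 states, prior count 0.125), with Benjamini-Hochberg adjustment over all genes tested. TE was the interaction over all 27 libraries. Fits were tested on simulated counts first. Alternatives were DESeq2 1.42.0, RLE scaling, no filter, both strands, a replicate block, only the groups compared and each library left out. Values in every library went to the called members of largest change, at most 4 per direction and comparison, and HSPA5, HSP90B1, HERPUD1 and SEL1L were given throughout. The members, role groups and lists were chosen with earlier results of these data known.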

Additional observations from a re-analysis of the deposited data

Results flagged for a closer look

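For ERLEC1 and SIL1 the footprint calls against cycling cells had opposite directions after the 2 senescence treatments. ERLEC1 footprints fell in irradiated and rose in etoposide cells against cycling cells, and the direct test of irradiated minus etoposide gave -1.93 on the log2 scale. SIL1 footprints did the same, with -1.79 in the direct test. Both differences passed edgeR's test after adjustment and in all 12 alternatives run for each, with adjusted p up to 0.00748 for ERLEC1 and 0.0114 for SIL1. The calls against cycling cells were less firm. The SIL1 fall after irradiation was lost in 5 of 12 alternatives, those without cycling replicate 2 or 3 or any 1 irradiated library, with adjusted p up to 0.12, and its rise after etoposide in 2 of 12. The ERLEC1 rise after etoposide was lost in 2 of 12 and its fall after irradiation in 0. The part of Ribo-seq depth, lower in irradiated libraries, was not tested.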

How the results depend on the processing

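Shallow Ribo-seq libraries and groups of 2 or 3 limit every result. Of 309 single-gene results, 189 neither lost a call nor turned under any alternative. Between states, 10 of 23 same-numbered RNA pairs of libraries correlated above 0.1, beside 17 of 44 differently numbered ones. In Ribo-seq 8 of 26 same-numbered pairs did, beside 6 of 52 differently numbered ones. The share was thus higher for equal numbers in Ribo-seq, and its source was not tested. The main fits took no account of the replicate number, and the replicate block did. Between the assays, same-numbered libraries of a state correlated above 0.1 in 7 of 13 pairs (3 of 3 in etoposide, 2 of 2 in cycling, 2 of 3 in quiescent and 0 in the other states), and differently numbered ones in 2 of 24. The TE model left this out; with a block for each such pair it called 0 members outside thapsigargin, as without it. The replicate block moved the count of members called in thapsigargin TE from 4 to 8 and in irradiated against quiescent from 3 to 1 in RNA and from 3 to 1 in footprints. With the block 17.6% of all genes were called in thapsigargin TE, against 20.7% without it. For irradiated against quiescent the shares were 18% against 18.7% in RNA and 14% against 14.6% in footprints. The cause was not tested for any change below. The share of all genes called is given where each group kept at least 2 libraries.

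Fitted on the groups compared alone, the members called in RNA were 6 for quiescent and 16 for etoposide against cycling (18 and 4 with all states), and 0 for irradiated against quiescent. Of all genes 6.76%, 46.5% and 15.4% were called, in this order. In footprints the members called were 7 for quiescent and 20 for etoposide against cycling (24 and 5), 15 for etoposide against quiescent (32) and 0 for irradiated against quiescent. Of all genes 15.9%, 52.4%, 34.6% and 12.1% were called. In TE the members called were 13 for irradiated against cycling, 13 for irradiated against etoposide and 8 for thapsigargin. Of all genes 6.69%, 5.45% and 9.14% were called. DESeq2 called 6 members for irradiated against quiescent RNA, and 23.1% of all genes. With no filter the footprint counts were 3 for both senescent states against quiescent and 0 for irradiated against quiescent, where 17.8% and 9.13% of all genes were called. With RLE scaling thapsigargin TE had 2, where 20.7% of all genes were called.

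With each library left out in turn, members called in RNA ranged from 6 to 26 for quiescent, 21 to 26 for irradiated, 3 to 6 for etoposide and 10 to 15 for thapsigargin against cycling, from 5 to 16 for both senescent states, 0 to 16 for irradiated and 25 to 32 for etoposide against quiescent, and from 30 to 33 for irradiated against etoposide. In footprints the ranges were 12 to 31, 30 to 32, 2 to 5 and 8 to 12, then 4 to 8, 0 to 24 and 26 to 35, and 30 to 32, in the same order. In thapsigargin TE the range was 2 to 5. Of all genes, RNA shares called against quiescent were 28.7% to 32.9% for both senescent states, 10.8% to 21.2% for irradiated and 31.4% to 41.7% for etoposide. Footprint shares were 18.5% to 29.2%, 7.93% to 20.4% and 26.6% to 39% in this order. For irradiated against etoposide, 13.9% to 17.5% were called in RNA and 12.7% to 17.3% in footprints. Against cycling, footprint shares were 13.3% to 25%, 30.8% to 34.3% and 25.7% to 27.3% for quiescent, irradiated and etoposide. HSPA5 changed sign, never as a call. For both senescent states against quiescent it was 0.043 in footprints with the replicate block, and it ranged from -0.37 to 0.29 in footprints and from -0.018 to 0.66 in RNA with a library left out. Its TE then ranged from -0.48 to 0.25 for quiescent, from -0.35 to 0.15 for irradiated against etoposide and from -1.16 to 0.29 for thapsigargin.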
